A study of Mus musculus with 8 samples.

Results

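Regular nucleosome arrays of wild-type (WT) spermatocytes were described here as autosomal runs of 5 or more successive nucleosome summits in which every gap between neighbours measured from 170 to 210 bp. A summit is the point of highest coverage of a called nucleosome position. The runs were chosen by measured values, the summit positions of the WT spermatocyte library. Their own spacing is therefore given as a description only. In all 10703 runs were found, and they held 57994 of the 5176848 autosomal summits of that library, or 1.12%. Across the 8 libraries of the study the lists held 36905351 autosomal summits.

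Micrococcal nuclease (MNase) was used on chromatin from mouse testis, in fractions of spermatocytes, of round spermatids and of condensing spermatids, and the protected DNA was sequenced. Each of the 3 stages was taken from WT mice and from a mutant labelled H2AL2-less, which lacks the testis histone variant H2A.L.2. For condensing spermatids, electrophoresis parted the fragments into a nucleosome-sized class, near 130 to 170 bp, and a class called small structures, near 40 to 80 bp. The series description gives 207000000 to 753000000 reads per sample, without saying which sample had which number. There was 1 library per group, so no difference between libraries could be tested against replicates. The sources used here do not give strain, age, the number of animals pooled or the purity of the fractions, and positions of protected DNA carry no expression markers with which to check the cell types.

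A nucleosome wraps a stretch of DNA around a histone octamer, and a shorter linker joins it to the next. MNase cuts the linkers first, so that the summits of protected fragments mark where nucleosomes sit in many cells of the sample. Where neighbouring nucleosomes keep a constant distance, often because remodelling enzymes space them or a boundary phases them, they form a regular array. During spermiogenesis most histones are exchanged for transition proteins and then protamines. H2A.L.2 is known to enter chromatin late in this process and to assist the loading of transition proteins.

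Most arrays were short. Of the 10703 runs, 7605 (71.1%) had 5 summits, 2177 had 6, 619 had 7 and 302 had 8 or more. The longest held 14. The median span from first to last summit was 770 bp, the longest was 2440 bp, and the spans added up to 8.91 Mb. The mean gap was 188 bp with an SD over single gaps of 13.5 bp, and 97.8% of the run summits lay on a 10 bp grid. The mean gap of a run hardly varied with its length. Runs of 5 summits had 188.5 ± 6.19 bp (SD over 7605 runs) and runs of 8 or more 188.4 ± 4.02 bp (SD over 302 runs). Within the range, the gaps spread over all lengths, with 21.3% from 170 to 179 bp, 23.2% from 180 to 189 bp, 21.99% from 190 to 199 bp, 19.1% from 200 to 209 bp and 14.4% at 210 bp.

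Regular gaps followed one another more often than they followed irregular ones. In WT spermatocytes 17.9% of all neighbour gaps were from 170 to 210 bp. The share was 16.9% directly after a gap outside that range, 21.2% after 1 regular gap, 25.1% after 2, 28.0% after 3 and 29.0% after 4. H2A.L.2-less spermatocytes followed nearly the same course, from 16.5% to 29.6%. WT round spermatids went from 18.1% to 32.6% and H2A.L.2-less round spermatids from 16.3% to 27.1%. In condensing nucleosomes the shares were lower and rose by fewer points. They were 10.8% after an irregular gap and at most 14.6% (after 3 regular gaps) in WT, and 11.1% and at most 14.02% in the mutant. Small structures went from 16.8% to 21.8% in WT and from 14.97% to 20.2% in the mutant. The density of summits also varies along the genome, and its part in this clustering was not tested.

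**Figure D1:**
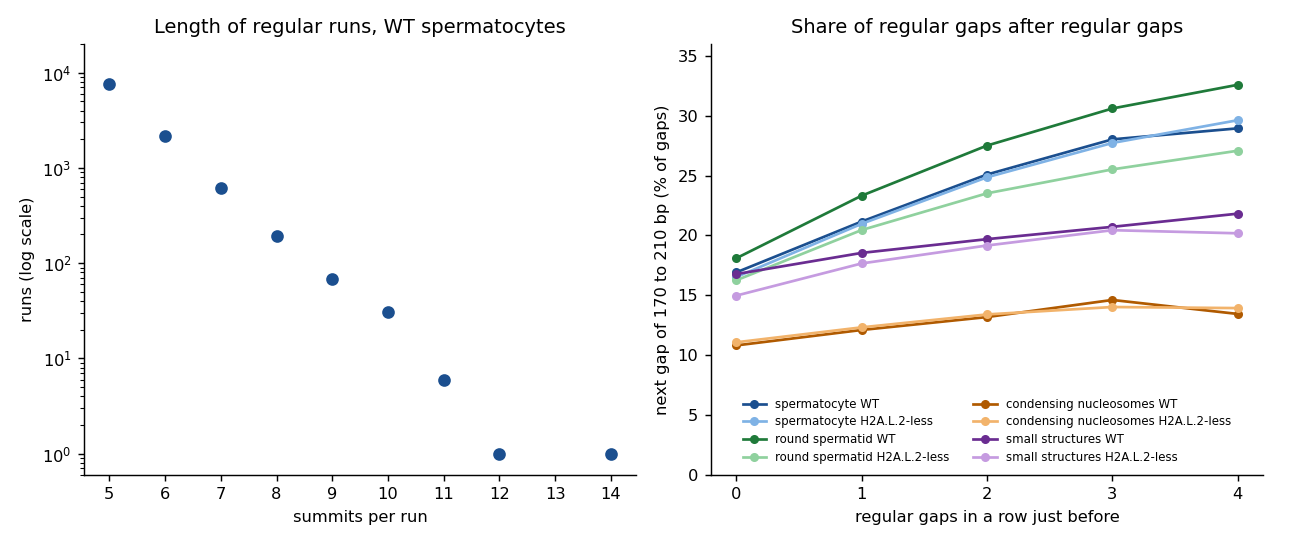
Left, the number of runs (log scale) against the number of summits per run in WT spermatocytes; right, the share of neighbour gaps from 170 to 210 bp (in % of gaps) against the number of regular gaps in a row just before, for the 8 lists. The number of runs falls from 7605 with 5 summits to 1 with 14, and the share, where 0 stands for an irregular gap before, is highest in WT round spermatids at 32.6%, lower in small structures and lowest in condensing nucleosomes.

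The same rule applied to the other lists gave the most arrays in WT round spermatids. There 15246 runs held 1.58% of the autosomal summits, against 9389 runs (1.07%) in H2A.L.2-less spermatocytes and 7774 runs (0.890%) in H2A.L.2-less round spermatids. Condensing nucleosomes had 841 runs (0.116%) in WT and 876 (0.118%) in the mutant, and small structures 5564 (0.555%) and 3543 (0.460%). Longer lists hold more runs by construction. With the 3748879 highest summits of every list, the length of the shortest one, WT round spermatids still had the most, 6240. WT spermatocytes then had fewer runs than H2A.L.2-less spermatocytes, 4584 against 4930, so the order of genotypes at that stage turned with list length. H2A.L.2-less round spermatids had 4122, condensing nucleosomes 841 and 798, and small structures 3080 and 3127. Separation by fragment size is described for the condensing samples alone, so stage and fragment selection cannot be told apart in these counts.

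Array nucleosomes were slightly higher and less fuzzy than the rest. The summit value, the height of the smoothed coverage at the summit, had a median of 256 in runs (quartiles 212 and 308, n = 57994) and 232 outside (quartiles 196 and 280, n = 5118854). The medians over single autosomes ran from 248 to 264 in runs and from 224 to 236 outside, without overlap. The fuzziness score, which grows as the fragments of a position are more dispersed, had a median of 52.7 in runs (SD over autosomes 0.239) and 53.4 outside (0.254). The run median was the lower one on 19 of 19 autosomes. The 5th to 95th percentiles were narrower in runs, from 45.6 to 58.3 against 44.6 to 59.9, so that runs held fewer of the fuzziest positions and fewer of the sharpest.

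Height and fuzziness changed from the ends of the arrays to their middle. End summits had a median value of 248 and a median fuzziness of 53.0, the summits next to them 256 and 52.6, and those further in 256 and 52.5. Among summits of the lowest 10% of values 0.649% belonged to runs, among those from the 90th percentile up to the highest 0.1% the share was 1.97%, and among the highest 0.1% it was 1.42%. Of the array summits 73 (0.126%), in 28 runs, were among the highest 0.1% (above 1048), against 0.0993% of all autosomal summits. The highest value in a run was 8924, against 21461064 outside.

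The arrays were spread over all 19 autosomes but unevenly. Their density was 4.46 ± 1.30 runs per Mb (mean and SD over 19 autosomes). Chromosome 11 was the densest, with 937 runs or 7.88 per Mb, followed by chromosome 9 with 6.05 and chromosome 7 with 5.58. Chromosome 3 had the fewest for its length, 2.49 per Mb, before chromosome 10 with 2.98 and chromosome 18 with 3.04. Chromosomes with more summits per Mb had more runs (Pearson's r 0.929, Spearman's rho 0.874 over 19 autosomes, both measures from the same list). The mean gap within runs lay between 188.0 and 188.9 bp on the autosomes, a range smaller than 1 step of the 10 bp grid.

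Along chromosomes, arrays concentrated in summit-rich windows. Of 2408 windows of 1 Mb with at least 500 summits, 424 held no run. The median was 3 runs, the 95th percentile 15 and the highest number 36. In the 602 windows with the fewest summits 0.285% of the summits belonged to runs, and in the 602 with the most 1.95%. Ordered by the number of WT small structures, the same shares were 0.298%, 0.518%, 1.07% and 1.90% from the poorest to the richest 602 windows. Neighbouring runs were usually far apart, with a median distance of 78895 bp, and 156 of 10684 neighbours (1.46%) lay within 1000 bp of each other.

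The window with the highest share of summits in runs was chr2:180000001-181000000, where 36 runs held 194 of 3855 summits (5.03%). It was followed by chr6:91000001-92000000, with 31 runs and 175 of 3573 summits (4.90%), and chr15:87000001-88000000, with 31 runs and 182 of 3765 summits (4.83%). In the 3 windows WT small structures numbered 4603, 4673 and 4135. Among the 424 windows without a run, the 3 with the most summits were chr6:148000001-149000000 with 2473, chr2:70000001-71000000 with 2443 and chr13:113000001-114000000 with 2432. Their WT small structures numbered 1999, 2827 and 2689. Coordinates are on the mm9 build. Gene names and sequences were not placed on them, since no annotation of that build was used here.

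The main question put to the other 7 lists was whether a summit lay within 40 bp of each array summit. In H2A.L.2-less spermatocytes 66.8% ± 1.05 (SD over 19 autosomes) of the array summits were matched, against 51.3% ± 0.598 of the summits outside runs and 51.5% of all autosomal summits. In WT round spermatids the array share was 69.4% ± 1.05, against 55.2% ± 0.285 outside and 55.4% of all. In H2A.L.2-less round spermatids it was 52.4% ± 1.48, against 42.7% ± 1.06 outside and 42.8% of all. Array summits were thus matched more often by 15.5, 14.2 and 9.75 percentage points, each on 19 of 19 autosomes.

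In condensing spermatids the advantage in points within 40 bp was smaller. As a ratio of array to other summits it was 1.15 in both condensing nucleosome lists, against 1.30, 1.26 and 1.23 in the 3 lists above. In small structures the ratio was 1.21 in WT and 1.31 in the mutant, the last above all the others. Within 73 bp the excess in points was larger in small structures, at 14.4 and 15.9, than in those 3 lists. Of the array summits 28.7% ± 1.37 were matched among WT condensing nucleosomes, against 25.04% ± 1.33 outside and 25.1% of all. In the H2A.L.2-less list the shares were 29.5% ± 1.73, 25.7% ± 1.34 and 25.7%. Small structures lay at 47.5% ± 1.88 of the array summits in WT, against 39.3% ± 2.58 outside and 39.4% of all. In H2A.L.2-less cells they lay at 37.6% ± 2.59, against 28.7% ± 2.70 outside and 28.8% of all. The 4 differences were 3.64, 3.82, 8.16 and 8.94 points, again with the runs above the rest on 19 of 19 autosomes. In all 4 lists this excess differed with where the arrays lie. In the 602 windows richest in WT small structures, which hold 6223 of the runs, WT small structures lay at 50.2% of array summits and 50.4% of the others, and mutant ones at 41.7% and 40.03%. In the 602 poorest windows, with 442 runs, the shares were 37.3% and 20.9% in WT and 24.3% and 13.8% in the mutant. In the richest windows condensing nucleosomes lay at 29.1% of array summits and 27.8% of the others in WT, and at 29.8% and 28.5% in the mutant. In the poorest windows they lay at 24.3% and 19.9% in WT, and at 26.1% and 20.5% in the mutant. The 95% Wilson intervals of the array shares, which cover counting error only, were narrower than the spread over autosomes, for example 52.0% to 52.8% for H2A.L.2-less round spermatids. The spread over autosomes describes places in the genome, not animals.

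The linkers gave the opposite picture in the earlier stages. At the midpoints between neighbouring array summits, 9.61% of sites had an H2A.L.2-less spermatocyte summit within 40 bp, 13.6% a WT and 9.07% an H2A.L.2-less round spermatid summit. Array summits were matched 6.96, 5.10 and 5.78 times as often as their linkers. The midpoints of regular gaps outside the runs were low too, at 14.2%, 18.2% and 13.3%, so that low occupancy of linkers was not limited to the arrays. Moved by 5000 bp, the array summits were matched at 24.4%, 27.9% and 20.2%, above the linkers and far below the arrays themselves. Since no list holds summits closer than 100 bp, a summit on an array position keeps others from the adjoining linkers, and part of this contrast is set by the calling.

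In the condensing lists the linkers were also less often occupied than the array positions, but by a smaller margin. WT nucleosomes stood at 21.96% and H2A.L.2-less ones at 22.8% of the midpoints, so that the array positions were 1.31 and 1.29 times as often occupied. WT small structures were found at 36.7% and H2A.L.2-less ones at 31.4% of the midpoints, for ratios of 1.29 and 1.198. At the midpoints of regular gaps outside the runs the shares were 18.8%, 19.8%, 27.8% and 22.5% in the same order of lists. The array positions were above the midpoints on 19 of 19 autosomes in each of these 4 lists. After a move of 5000 bp the shares were 19.4%, 19.8%, 33.2% and 27.1%, below the midpoint shares in all 4.

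**Figure D2:**
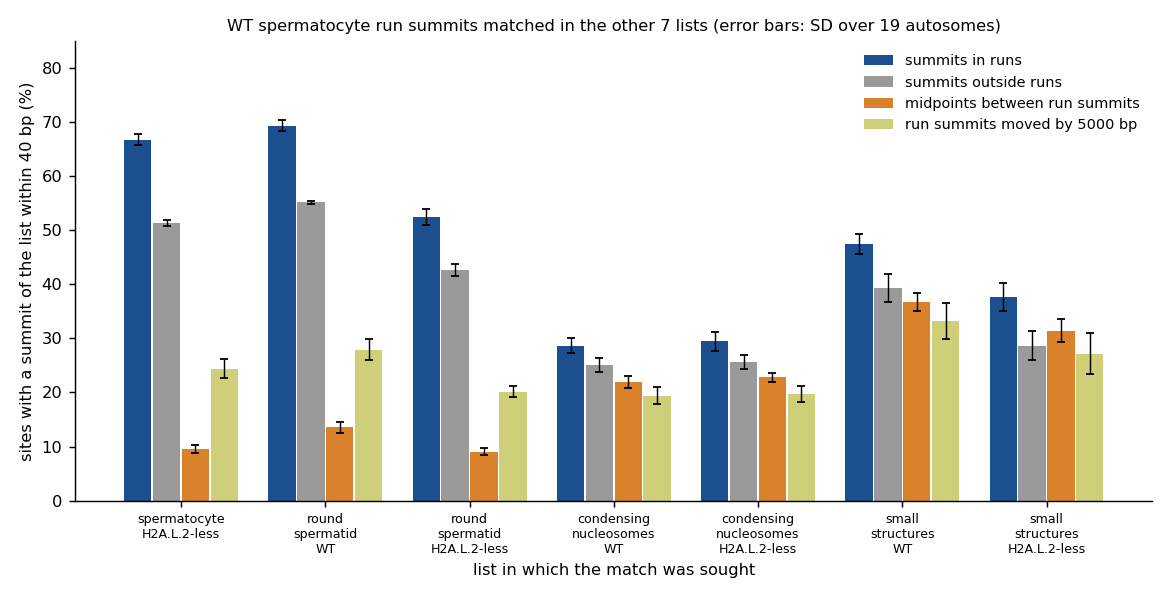
Share of sites (in %) with a summit of the named list within 40 bp, for array summits, summits outside runs, midpoints between array summits and array summits moved by 5000 bp; bars are pooled shares and error bars the SD over 19 autosomes. In the 3 lists of spermatocytes and round spermatids the array summits stand from 52.4% to 69.4% and the midpoints below 14%, while in the condensing lists the bars lie closer together.

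Between genotypes, the share matched in H2A.L.2-less round spermatids was 0.755 times that in WT inside the arrays and 0.773 times outside. In points the difference was -17.0 in the arrays and -12.6 outside. The corresponding ratios were 1.03 in runs and 1.02 outside for condensing nucleosomes, and 0.793 and 0.730 for small structures. The WT lists were longer than the H2A.L.2-less ones in round spermatids, with 5322422 against 4700815 summits, and in small structures, with 5291731 against 4047666. When each of the other lists was reduced to its 3748879 highest summits, with the arrays as they were, 58.3% of the array summits were matched in WT and 45.0% in H2A.L.2-less round spermatids, and among small structures 40.2% and 35.9%. H2A.L.2-less spermatocytes (59.04%) then stood above WT round spermatids, the reverse of the order with all summits.

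Where a match existed, it was also closer in the arrays of the earlier stages. Of the matched array summits, 53.1% had their counterpart within 10 bp in H2A.L.2-less spermatocytes, 50.9% in WT and 50.2% in H2A.L.2-less round spermatids. Outside runs the shares were 48.0%, 46.9% and 45.5%. In condensing nucleosomes they were 38.7% in runs of either genotype against 39.6% outside in WT and 39.4% in the mutant. Small structures had 35.7% in runs and 35.8% outside in WT, and 36.4% and 36.2% in the mutant.

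Higher summits are matched more often, and the arrays kept their advantage within classes of height. WT summit values were divided at 196, 232 and 280 into 4 classes. In the lowest class 49.4% of array summits and 36.4% of the others were matched in H2A.L.2-less spermatocytes. In the highest class the shares were 79.6% and 69.7%. For WT round spermatids the differences between arrays and the rest were 12.6, 11.5, 10.8 and 9.14 points from the lowest to the highest class, and for H2A.L.2-less round spermatids 6.38, 7.06, 6.26 and 7.19 points. Condensing nucleosomes differed by 1.53 to 2.58 points in WT and 1.76 to 2.79 points in the mutant, and small structures by 5.70 to 8.79 and 6.94 to 9.39 points.

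Matching increased steadily with the length of the array in the 3 lists of spermatocytes and round spermatids. In H2A.L.2-less spermatocytes it was 48.7% for summits with no regular gap on either side, 55.7% in runs of 2 summits, 60.1% in runs of 3, 66.0% in runs of 5 and 72.5% in runs of 8 or more. WT round spermatids went from 52.9% to 74.3% and H2A.L.2-less round spermatids from 40.9% to 56.0% over the same range. Just outside the rule, the 27483 runs of 4 summits had a matched share of 63.3% in H2A.L.2-less spermatocytes, 66.4% in WT and 50.5% in H2A.L.2-less round spermatids. Just inside it, the runs of 5 had 66.0%, 68.5% and 51.7%. Runs of 4 and of 5 thus lay next to each other on one slope, with median values of 248 and 252 and median fuzziness of 52.9 and 52.7. From summits without a regular gap to runs of 8 or more, WT condensing nucleosomes went from 24.3% to 29.6%, mutant ones from 24.8% to 30.0%. Small structures went from 37.6% to 47.4% in WT and from 27.1% to 39.2% in the mutant. In each of these condensing lists runs of 7 summits were above runs of 8 or more, for example at 49.1% in WT small structures. Summit density was not held equal in this comparison.

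Summits within an array were better kept than those at its ends. In H2A.L.2-less spermatocytes 63.6% of end summits, 67.6% of those next to the ends and 70.4% of those further in were matched. WT round spermatids gave 67.4%, 70.0% and 71.5%, and H2A.L.2-less round spermatids 49.8%, 53.5% and 54.5%. In condensing nucleosomes the end and the inner summits were 27.5% and 29.2% in WT and 28.8% and 30.3% in the mutant. Among small structures they were 46.1% and 48.5% in WT and 36.4% and 38.2% in the mutant.

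Because arrays need closely packed summits, they were compared with stretches of the same density. All sets of 5 successive WT spermatocyte summits spanning 680 to 840 bp were sorted by how many of their 4 gaps were regular, and the middle summit was followed. In H2A.L.2-less spermatocytes the matched share was 47.6% with no regular gap (n = 104621), 51.0% with 1, 56.6% with 2, 63.5% with 3 and 70.4% with all 4 (n = 15182). WT round spermatids went from 51.9% to 71.5%, and H2A.L.2-less round spermatids from 38.3% to 54.5%. The mean difference between 4 and 0 regular gaps was 22.6 ± 2.02, 19.6 ± 2.17 and 16.4 ± 2.11 points (SD over autosomes), positive on 19 of 19 autosomes in each list.

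At equal density the arrays had no such advantage in condensing nucleosomes. The WT shares were 29.5%, 29.9%, 29.5%, 29.6% and 29.2% from 0 to 4 regular gaps, and the H2A.L.2-less ones 30.7%, 30.8%, 30.6%, 30.3% and 30.3%. The difference between 4 and 0 was -0.115 ± 1.67 points in WT, positive on 10 of 19 autosomes, and -0.468 ± 1.82 points in the mutant, positive on 6 of 19. Small structures had 45.8% with no and 48.5% with 4 regular gaps in WT (2.67 ± 1.90 points, positive on 17 of 19 autosomes) and 36.1% and 38.2% in the mutant (2.05 ± 1.60 points, positive on 16 of 19). In both, stretches with 3 regular gaps were above those with 4, at 49.1% and 39.8%.

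Height moved with regularity in this comparison: the median summit value was 236 with no regular gap and 256 with 4, and the median fuzziness was 56.8 and 52.5. Within the same 4 classes of summit value, the difference between 4 and 0 regular gaps stayed at 17.8 to 21.5 points in H2A.L.2-less spermatocytes, 16.1 to 17.6 in WT and 12.5 to 13.9 in H2A.L.2-less round spermatids. For condensing nucleosomes it lay from -2.52 to -0.701 points in WT and from -2.996 to -0.559 in the mutant. For small structures it was 0.0602 points in the lowest and 4.07 in the highest class in WT, and -0.864 and 3.10 in the mutant.

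**Figure D3:**
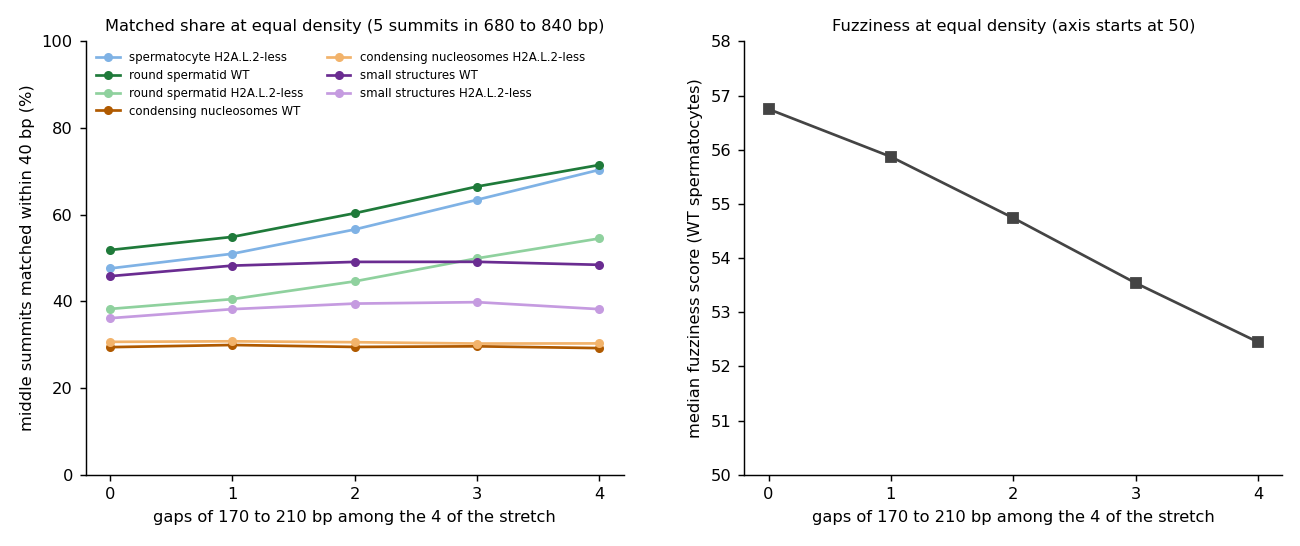
Left, the share (in %) of middle summits matched within 40 bp in each of the 7 other lists against the number of regular gaps, for 5 successive WT spermatocyte summits spanning 680 to 840 bp; right, the median fuzziness score of the same middle summits, on an axis that starts at 50. The 3 lists of spermatocytes and round spermatids climb, for example from 47.6% to 70.4%, the condensing lists stay flat or nearly so, and fuzziness declines from 56.8 to 52.5.

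The spacing of the other lists within the arrays followed the same division. Between summits of H2A.L.2-less spermatocytes that lay in the same array, 44.8% ± 1.18 (SD over autosomes) of the gaps were from 170 to 210 bp, against 27.3% ± 1.51 in the same windows moved by 5000 bp. WT round spermatids had 44.1% ± 1.41 against 28.6% ± 1.63, and H2A.L.2-less round spermatids 40.0% ± 1.53 against 26.7% ± 1.45. In condensing nucleosomes the shares were 20.2% ± 1.64 and 18.7% ± 1.76 in WT, and 19.9% ± 1.59 and 18.6% ± 1.24 in the mutant. Small structures had 23.5% ± 1.40 against 21.5% ± 1.18 in WT and 22.7% ± 1.23 against 21.6% ± 1.69 in the mutant. Taken autosome by autosome, arrays exceeded the moved windows by 17.9 ± 1.81 points (mean and SD of the differences) in H2A.L.2-less spermatocytes, 15.9 ± 1.90 in WT and 13.4 ± 2.30 in H2A.L.2-less round spermatids, each on 19 of 19. For condensing nucleosomes the differences were 2.34 ± 2.82 points in WT (16 of 19) and 1.29 ± 2.13 in the mutant (15 of 19). For small structures they were 2.11 ± 1.87 points in WT (18 of 19) and 1.33 ± 1.43 in the mutant (16 of 19). Windows are short, so gaps longer than the window are missed in both sets. The array windows also held more summits, for example 4.22 against 2.49 per window in H2A.L.2-less spermatocytes. The part of summit density in these differences was not tested.

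Irregular gaps within the arrays differed in kind between lists. In H2A.L.2-less spermatocytes 25.4% of the gaps were shorter than 170 bp and 29.8% longer than 210 bp, and 8.04% were from 340 to 420 bp, about the length left by 1 missing position. WT round spermatids had 28.7%, 27.1% and 5.83%. H2A.L.2-less round spermatids had more long gaps, with 21.9%, 38.0% and 12.2%. This list had 3.40 summits per array window, against 4.57 in WT round spermatids and 5.42 array summits. In the same windows moved by 5000 bp, the shares longer than 210 bp were 44.35%, 41.04% and 49.68% in these 3 lists. Those from 340 to 420 bp were 11.53%, 9.64% and 12.9% there. The larger share of long gaps in H2A.L.2-less round spermatids was thus not limited to the arrays. The most frequent gap was 180 to 189 bp in H2A.L.2-less spermatocytes and WT round spermatids and 190 to 199 bp in H2A.L.2-less round spermatids, but 120 to 129 bp in condensing nucleosomes and 140 to 149 bp in small structures of both genotypes. In the moved windows it was 180 to 189 bp in the 3 earlier lists and again 140 to 149 bp in small structures. Condensing nucleosomes had 140 to 149 bp in WT and 120 to 129 bp in the mutant there.

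Neighbouring array summits were kept as neighbours in part, and the same share was not counted for gaps outside the arrays. Of the 47291 gaps inside arrays, 47.0% had both ends matched by successive summits of H2A.L.2-less spermatocytes, 50.02% by WT and 30.5% by H2A.L.2-less round spermatids. The share was 8.86% and 9.10% in WT and H2A.L.2-less condensing nucleosomes and 22.6% and 15.1% in small structures. At these kept gaps the mean distance was 187.3 bp in H2A.L.2-less spermatocytes, where the WT gaps measured 188.3 bp, a difference of -0.997 ± 0.478 bp (SD over autosomes) and well below 1 grid step. For round spermatids the difference was -1.45 ± 0.645 bp (WT) and -0.553 ± 0.786 bp (mutant). In condensing nucleosomes it was -0.816 ± 2.28 bp in WT and -2.40 ± 2.68 bp in the mutant. Their kept gaps were longer than the WT spermatocyte gaps on 6 and 4 of 19 autosomes. At the kept gaps small structures stood closer together than the array summits they matched, with -8.43 ± 1.44 bp in WT and -6.36 ± 1.28 bp in the mutant, on 19 of 19 autosomes. Gaps with a further summit between the matched ends were left out. In WT small structures 24.7% of gaps had both ends matched and 22.6% by successive summits, against 47.5% and 47.0% in H2A.L.2-less spermatocytes. Since summits closer than 100 bp do not occur, this selection favours shorter gaps. Its part in the shift was not tested. Of the kept gaps in H2A.L.2-less spermatocytes 64.3% were themselves from 170 to 210 bp, against 49.8% in WT condensing nucleosomes and 44.3% in WT small structures.

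The ends of the arrays showed how far the phase extended. Densities were averaged over 3 bins of 10 bp. Around the end summits, the density of H2A.L.2-less spermatocyte summits peaked at 5.57 times the autosomal mean on the end itself, at 5.45 times 190 bp into the array and at 5.23 times 380 bp in, with a low of 0.388 times at 280 bp. WT round spermatids peaked at 5.12, 4.80 and 4.56 times and H2A.L.2-less ones at 4.22, 4.16 and 3.98 times, at the same 3 places. Beyond the end, where the next WT spermatocyte gap is irregular by the rule, the periodic pattern went on at a lower height. H2A.L.2-less spermatocytes peaked there at 2.21 times at 180 bp, 2.44 times at 370 bp and 2.22 times at 560 bp. WT round spermatids had 2.07, 2.30 and 2.04 times and H2A.L.2-less ones 1.85, 2.01 and 1.75 times at the same distances. WT spermatocytes themselves, with 2.45 times at 370 bp, came close to the H2A.L.2-less list once past the first gap.

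Condensing nucleosomes and small structures were in phase with the arrays inside them and not beyond. WT condensing nucleosomes stood at 2.33 times the autosomal mean on the end summit, 1.52 times at 90 bp, 2.29 times at 180 bp and 2.22 times at 380 bp into the array. Beyond the end they were lowest, at 1.31 times, at 190 bp, and at 300 bp they stood at 1.57 times. WT small structures peaked inside at 2.68 times at 180 bp and 2.53 times at 380 bp. Outside they were lowest at 210 bp (1.31 times), high at 300 bp (2.23 times), low at 370 bp (1.46 times) and high again at 470 bp (1.99 times). H2A.L.2-less small structures alternated in the same way, with 1.51 times at 200 bp, 2.36 times at 290 bp, 1.66 times at 370 bp and 2.16 times at 470 bp. Round spermatid summits had their peaks at 180 and 370 bp and their trough near 280 bp beyond the end, so that outside the arrays small structures were dense where earlier nucleosomes were sparse.

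**Figure D4:**
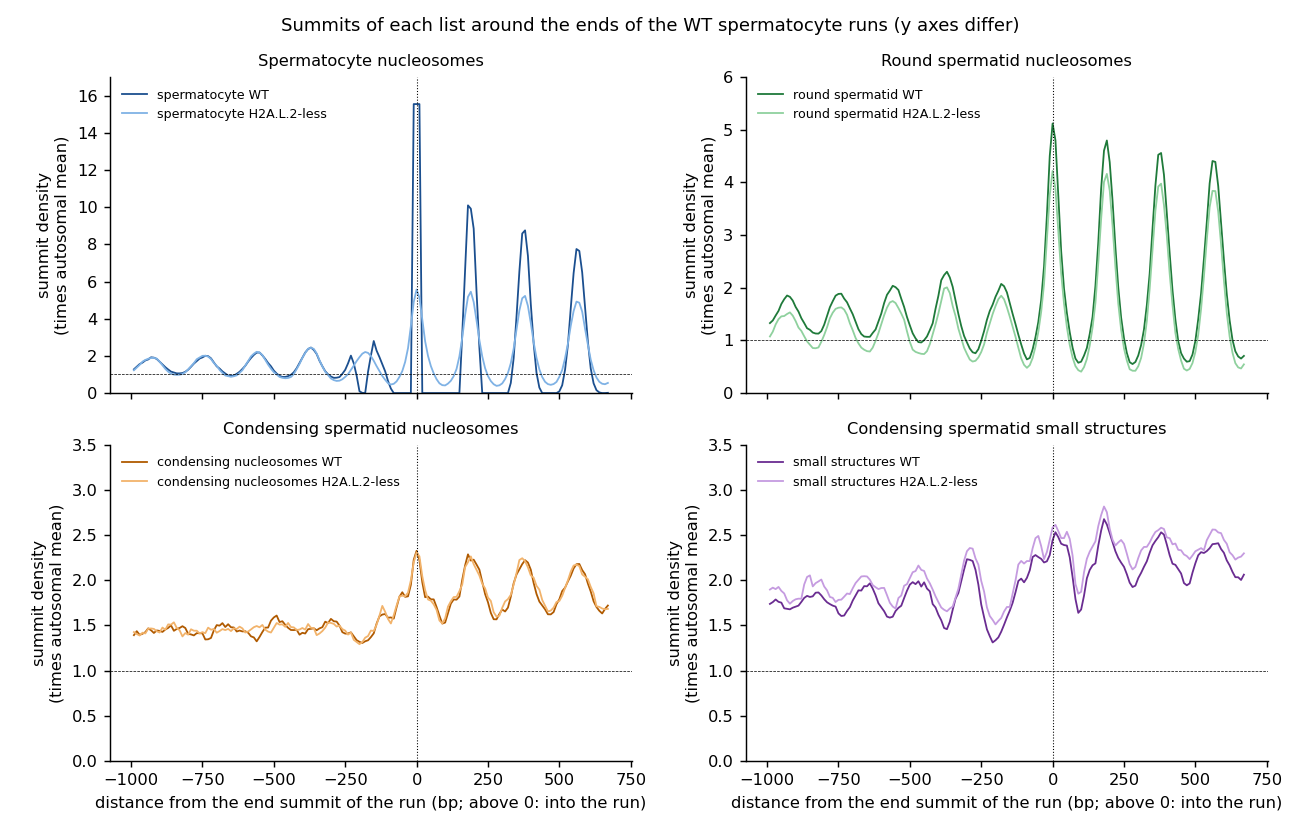
Density of summits of each of the 8 lists, in multiples of the list's autosomal mean (averaged over 3 bins of 10 bp), against the distance in bp from the end summits of the WT spermatocyte arrays, with positive distances pointing into the array and y axes that differ. The WT spermatocyte line is set by the rule inside the arrays and at the first gap outside. Inside, all lists peak near 190 and 380 bp; outside, spermatocyte and round spermatid lists go on peaking near 180 and 370 bp, whereas small structures peak near 300 bp and are low near 200 bp.

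The gaps that ended the arrays were of several kinds. Of 21406 end gaps, 22.2% were from 100 to 159 bp, 7.35% from 160 to 169 bp and 5.26% from 211 to 220 bp, the last 2 just outside the rule. A further 18.97% were from 221 to 339 bp, 18.5% from 340 to 420 bp and 27.7% longer. Among all irregular gaps of the list the shares were, in the same order, 20.1%, 4.29% and 3.28%, then 19.3%, 13.5% and 39.5%. The gaps just outside the rule and those of 340 to 420 bp thus took larger shares at array ends than in the whole list, and the longest gaps a smaller one. At the midpoints of the 3951 end gaps of 340 to 420 bp, where 1 regular position would fit, H2A.L.2-less spermatocytes had a summit within 40 bp at 20.1% ± 2.59 (SD over autosomes), against 14.5% ± 0.619 at the midpoints of other gaps of that length. WT round spermatids had one at 23.4% ± 3.98 against 15.8% ± 0.954, and H2A.L.2-less round spermatids at 18.9% ± 2.71 against 15.5% ± 0.483. In the first 2 of these lists 66.8% and 69.4% of the array summits were matched. Small structures were found there at 20.2% ± 5.18 against 16.2% ± 1.84 in WT and at 17.3% ± 3.91 against 13.3% ± 1.79 in the mutant, condensing nucleosomes at 13.6% ± 2.29 against 12.8% ± 0.809 in WT and 13.9% ± 3.25 against 13.3% ± 0.819 in the mutant. The mean difference within autosomes was 5.28 ± 2.55 points in H2A.L.2-less spermatocytes, 6.84 ± 3.60 in WT and 3.32 ± 2.57 in H2A.L.2-less round spermatids. It was 3.37 ± 4.29 in WT and 3.51 ± 3.30 in mutant small structures, and 0.952 ± 2.37 and 0.210 ± 2.96 in condensing nucleosomes. The end gaps were higher on 18, 19, 16, 16, 16, 12 and 12 of 19 autosomes, in that order.

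Whole arrays were kept less often than single summits, since every summit has to be matched. Every summit was matched for 1626 runs (15.2%) in H2A.L.2-less spermatocytes, 1991 (18.6%) in WT and 649 (6.06%) in H2A.L.2-less round spermatids. The count was 29 and 31 runs in WT and H2A.L.2-less condensing nucleosomes, and 319 and 124 runs in small structures. For comparison, among the stretches of 5 summits in 680 to 840 bp described above, all 5 were matched in H2A.L.2-less spermatocytes for 2.69% of those with no regular gap and 18.6% of those with 4. In WT round spermatids the shares were 3.59% and 22.1%, and in H2A.L.2-less ones 1.04% and 7.79%. Condensing nucleosomes had 0.357% and 0.329% in WT and 0.389% and 0.336% in the mutant, and small structures 2.66% and 3.54%, and 1.10% and 1.57%. At least 80% of the summits were matched for 44.3% of the runs in H2A.L.2-less spermatocytes, 49.4% in WT and 23.1% in H2A.L.2-less round spermatids, and for 2.64% and 2.80% in the condensing nucleosome lists. Runs without any match were 79, 82 and 458 in the first 3 lists and 1943 and 1831 in condensing nucleosomes. Of the 302 runs of 8 or more, 35 were entire in H2A.L.2-less spermatocytes and 33 in WT round spermatids. None was entire in WT condensing nucleosomes, which allows a share of up to 0.993%. No run was entire in all 7 other lists (0 of 10703, which allows a share of up to 0.0280%), and 97 were entire in H2A.L.2-less spermatocytes and both round spermatid lists. Only the stretches of 5 summits entire in a single list gave a comparison with irregular stretches. The other counts were not made there and describe the arrays alone.

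Arrays called independently in the other lists rarely covered the same ground, though more often than elsewhere. Of the 10703 WT spermatocyte runs, 984 (9.19%) overlapped a run of H2A.L.2-less spermatocytes by at least 1 bp, which is 10.5% of the 9389 runs there. For WT round spermatids 1207 runs (11.3%) overlapped, with 7.96% of that list's 15246 runs. For H2A.L.2-less round spermatids it was 528 (4.93%) and 6.82%. Of the H2A.L.2-less spermatocyte summits inside WT arrays, 9.55% belonged to runs of their own list, against 0.998% of its summits elsewhere. The same shares were 10.6% and 1.503% in WT and 6.01% and 0.855% in H2A.L.2-less round spermatids, but 0.288% and 0.114% in WT condensing nucleosomes and 1.11% and 0.550% in WT small structures. Summits elsewhere include those of summit-poor regions. Array windows held 4.22 H2A.L.2-less spermatocyte summits each, against 2.49 after a move of 5000 bp. The part of summit density in these differences was not tested.

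Across windows, the matching of array summits in H2A.L.2-less round spermatids was lower where summits of any kind were dense. Over 4 classes of 602 windows, from the fewest to the most WT spermatocyte summits, it was 59.3%, 56.5%, 53.3% and 50.9%. Ordered by WT condensing nucleosomes it was 59.4%, 54.2%, 52.8% and 51.3%, and by WT small structures 59.7%, 57.3%, 54.7% and 50.05%. These 3 orders share much of their variation, and which of them goes with the matching was not tested. Summits outside runs went from 48.8% to 39.0% by spermatocyte summits. In H2A.L.2-less spermatocytes the array shares were nearly level, with 67.9% in the poorest and 67.2% in the richest windows, and in WT round spermatids they were 70.8% and 70.3%.

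The longest array lay at chr6:91511941-91514381, within the window of chromosome 6 named above. It held 14 summits with gaps from 170 to 210 bp and a mean gap of 188 bp. Summit values ran from 176 to 440 with a median of 290, against a list median of 232. H2A.L.2-less spermatocytes and WT round spermatids each matched 11 of the 14, H2A.L.2-less round spermatids 8, WT and H2A.L.2-less condensing nucleosomes 3 and 6, and WT and H2A.L.2-less small structures 5 and 3. The fifth summit, 760 bp from the first, had no H2A.L.2-less spermatocyte summit within 40 bp. The nearest ones of that list lay at 550 and 940 bp.

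**Figure D5:**
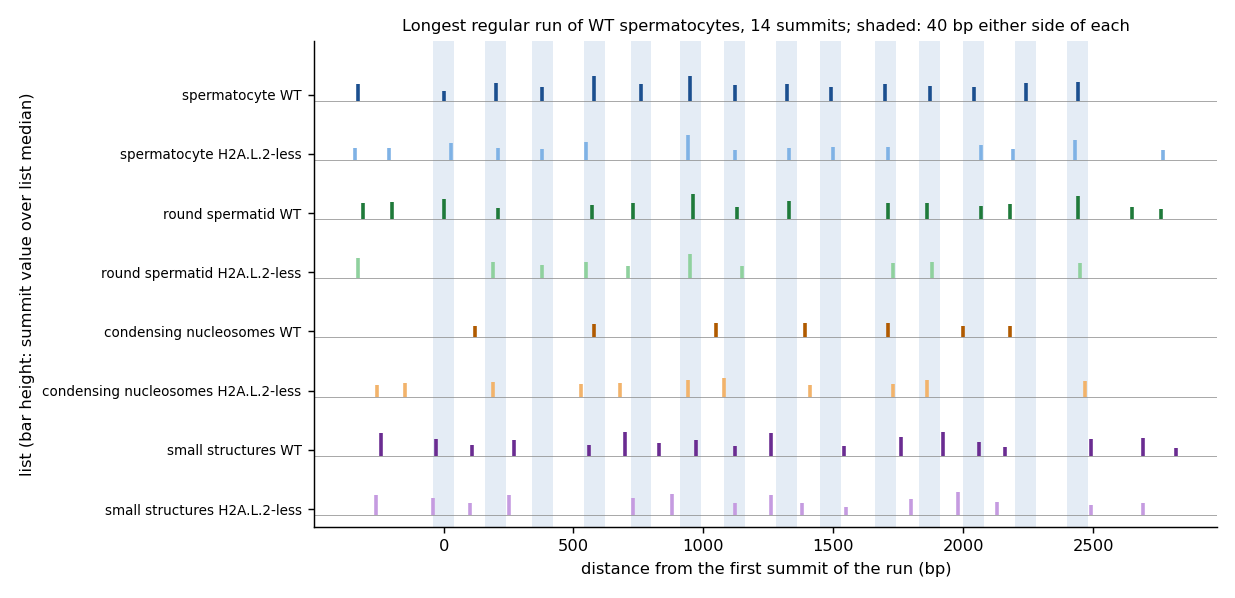
Summits of the 8 lists over the longest array, by distance in bp from its first summit; bar height is the summit value over the median of the list, and shading marks 40 bp on either side of the 14 WT spermatocyte summits. Most spermatocyte and round spermatid summits fall in the shaded bands, with 11 of 14 bands filled in H2A.L.2-less spermatocytes, while condensing nucleosomes and small structures often fall between them.

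The next longest arrays differed in how far they were kept. The array of 12 summits at chr7:108100581-108102611 was matched at 11 in H2A.L.2-less spermatocytes, 7 in WT and 8 in H2A.L.2-less round spermatids. At chr2:163612771-163614681, with 11 summits, the matches were 9, 10 and 10. At chr4:141689111-141690971, also with 11, they were 4, 7 and 7, and WT condensing nucleosomes matched 3. At chr7:114863971-114865901, with 11, they were 7, 9 and 7, and WT condensing nucleosomes matched none. The 5 arrays had median values from 248 to 296, against 256 for all array summits.

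The longest arrays kept entire in H2A.L.2-less spermatocytes and both round spermatid lists had 8 summits. The one at chr7:142187731-142189041 had a median value of 346 and was matched at 2 summits in WT condensing nucleosomes and 2 in WT small structures. The one at chr11:116614491-116615821 had values from 996 to 1936 with a median of 1644, above the start of the highest 0.1% at 1048, and was matched at 4 and 7 summits. The third, at chr5:121289611-121290771 with 7 summits and a median value of 368, was matched at 2 and 4. All 3 were above the array median of 256.

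At the other extreme, the longest array without any match in H2A.L.2-less spermatocytes had 7 summits at chr9:66024601-66025711 (median value 276) and was matched at 5 summits in WT and 4 in H2A.L.2-less round spermatids. An array of 6 at chr1:187791051-187791971 was matched at all 6 in WT round spermatids and at 5 in H2A.L.2-less ones. Another of 6 at chr4:104931131-104932101 was matched at 5 and 2. Most positions of these 3 arrays were thus matched in the WT round spermatid list although none was in the H2A.L.2-less spermatocyte list, the lack for which they were chosen.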

How the data were processed

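MNase-protected DNA of 8 libraries was analysed from the position lists the authors deposited. The mm9 build, Bowtie2 2.2.9 and deepTools 2.2.4 are named in the submitters' processing notes, and the sequencing runs of a sample were merged, per the series description. The settings of the position caller are not given in the sources used here. A position has a summit, a summit value, which is a coverage signal, and a fuzziness score, per the file headers. The scaling of the deposited signal is not stated, and the depth behind single values is unknown. The first percentile of summit values was 160 to 176 in the nucleosome lists. Among small structures it was 272 for WT and 96 for the mutant. Summits closer than 100 bp do not occur.

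Runs were found on chromosomes 1 to 19, and summits were matched within 40 bp. Midpoints between array summits, summits outside runs, sites moved by 5000 bp and stretches of equal density served for comparison. No test across libraries was made, with 1 library per group. The members, lists and measures were chosen with earlier results of these data known. Named runs are the 5 with the most summits, the 3 longest kept in 3 lists and the 3 longest without a match in H2A.L.2-less spermatocytes; named windows have the 3 highest and 3 lowest shares of summits in runs. The equal-density stretches by height, differences within autosomes, the genotype ratios and the correlation over autosomes were added after first values were seen. Alternatives were other match distances, gap ranges and run lengths, equal numbers of positions and removal of the highest 0.1%. Code was tested on simulated data, where 2000 of 2000 runs were found and 60.45% of summits made to match were recovered as 60.45%. Python 3.11.15, numpy 2.4.6, pandas 2.3.3 and matplotlib 3.10.9 were used.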

Additional observations from a re-analysis of the deposited data

Results flagged for a closer look

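The X chromosome was outside the rule, which covered autosomes only. It held 18 runs in WT spermatocytes, with 99 of its 130101 summits (0.0761%, 95% Wilson interval 0.0625 to 0.0926%), against 1.12% on the autosomes. H2A.L.2-less spermatocytes had 14 such runs, round spermatids 11 in WT and 13 in the mutant, condensing nucleosomes 2 and 4, and small structures 46 and 25. Of the small structures on the X, 0.300% in WT and 0.191% in the mutant lay in runs, against 0.555% and 0.460% on the autosomes. The X held fewer summits than any autosome. Chromosome 19, with 138235, had 309 runs and 1.21% of its summits in runs. Chromosome 3, with 287115 and the lowest density of arrays among the autosomes, had 390 runs and 0.719%. The part of summit number or of summit density in the low share was not tested.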

How the results depend on the processing

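The lists are given in the order H2A.L.2-less spermatocytes, WT and H2A.L.2-less round spermatids, WT and H2A.L.2-less condensing nucleosomes, and WT and H2A.L.2-less small structures. The number of arrays depended strongly on the rule. Gaps from 180 to 200 bp gave 2073, gaps from 160 to 220 bp 26610, runs of 8 or more summits 302 and equal numbers of positions 4584. The matched share of array summits was 50.3%, 50.8%, 37.9%, 17.3%, 17.9%, 27.4% and 21.9% within 20 bp, and 76.8%, 82.1%, 62.0%, 44.5%, 46.0%, 72.2% and 59.5% within 73 bp. With equal numbers in the other lists it was 59.04%, 58.3%, 45.0%, 28.7%, 28.8%, 40.2% and 35.9%. Gaps from 180 to 200 bp gave 68.9%, 71.2%, 54.1%, 29.6%, 29.9%, 46.5% and 37.1%, and gaps from 160 to 220 bp 64.5%, 67.4%, 50.7%, 28.8%, 29.5%, 47.9% and 38.2%. Runs of 8 or more summits gave 72.5%, 74.3%, 56.0%, 29.6%, 30.0%, 47.4% and 39.2%. Without the highest 0.1% of positions no share left its counting interval. The excess of array over other summits, in points, was above 0 in all 49 comparisons, none of which held summit density equal. At equal density, stretches with 4 regular gaps differed from those with none by -0.115 and -0.468 points in condensing nucleosomes. The excess was 14.4, 12.7, 9.02, 1.89, 2.10, 4.45 and 5.07 within 20 bp, and 11.9, 11.2, 6.24, 6.71, 7.13, 14.4 and 15.9 within 73 bp. With equal numbers it moved beyond its counting interval to 15.4 and 9.08 in round spermatids and 12.0 in WT small structures. Gaps from 180 to 200 bp gave 17.4, 15.8, 11.3, 4.54, 4.21, 7.12 and 8.33, gaps from 160 to 220 bp 13.3, 12.4, 8.12, 3.87, 3.91, 8.79 and 9.71, and runs of 8 or more summits 21.03, 18.9, 13.2, 4.57, 4.32, 7.98 and 10.4. The share of regular gaps of the other lists within arrays changes with the gap range by construction: it was 30.9%, 30.9%, 27.4%, 12.4%, 12.7%, 15.2% and 13.7% for 180 to 200 bp, and 54.5%, 54.5%, 49.6%, 27.7%, 27.8%, 35.4% and 32.1% for 160 to 220 bp. In runs of 8 or more it was 49.2%, 48.6%, 41.5%, 18.5%, 17.9%, 23.1% and 22.9%. With equal numbers it moved to 43.2%, 42.1% and 38.8% in the first 3 lists and 22.1% in WT small structures. Other causes of these shifts were not tested. Depth limits the lists: a position under the calling floor counts as unmatched.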
